A study of Homo sapiens with 21 samples.

Results

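The 36 genes described here encode the machinery that copies DNA in S phase, together with E2F transcription factors and a few regulators tied to them. They were chosen by symbol, without G1 cyclins and their kinases, and are 36 of the 16642 genes with a value on these arrays. The cells were MCF10A, an immortalised but non-tumorigenic line of human mammary epithelial cells, at low passage. All of them were first held 24 h without epidermal growth factor (EGF, the main mitogen of this line) and then starved for 24 h in 1% horse serum. EGF at 20 ng/ml was then left on for 20, 40, 60, 120, 240 or 480 min, and cells taken at 0 min had none. Each of the 7 times had 3 arrays, labelled A, B and C, from triplicate cultures of the line, and p-values measure only the spread between such cultures. No starved cells without EGF were arrayed at the later times, so EGF, time and handling cannot be told apart.

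Before a chromosome can be copied, the origin recognition complex (ORC), CDC6 and CDT1 load the MCM2 to MCM7 helicase on DNA in G1, a step called licensing. The CDC7 kinase with its activator DBF4, together with MCM10, CDC45 and the GINS complex, then turns the helicase on, and polymerases, the PCNA clamp and its RFC loader build the new strands. E2F factors switch on many of these genes late in G1, when cyclin-dependent kinases release them from the RB protein, and E2F7 and E2F8 later repress the same targets. Epithelial cells that re-enter the cycle from starvation take many hours to reach S phase.

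Values are log2(intensity + 16), the median over a gene's probesets, and a change is a difference on that scale, which understates changes of dim genes. The genes had 760 probesets, of which 628 were bright enough to be used, between 8 and 40 a gene. A gene was called higher or lower at an adjusted p under 0.05 in limma, with Benjamini-Hochberg adjustment over all 16642 genes. Array medians lay between 20.44 and 20.56 intensity units, and arrays of 1 time correlated at 0.944 to 0.988 across genes, which are not independent replicates. EGF signalling was visible at 20 min against 0 min in FOS, an immediate early transcription factor (4.31 ± 0.21, SE, adjusted p = 1.1e-11), and in DUSP6, a phosphatase that dampens ERK (1.18 ± 0.11, adjusted p = 2.7e-07). The list for this check was FOS, EGR1, DUSP6, MYC and CCND1, of which 4 were tested. At 20 min 3 of these were called higher, where 0.895% of all genes were, and 1 was not (-0.06). All 8 basal mammary markers passed the filter, with gene levels between 9.18 and 12.5. LAMB3 was the basal marker called higher at 480 min (0.88 ± 0.10, adjusted p = 6.2e-07), and the mean level of that list was 10.6 to 10.7 at 480 min and 10.3 to 10.5 at 0 min. Of the fibroblast markers, 6 of 7 passed (LUM did not), and the mean level of the list was 6.35 to 6.47 at 480 min and 6.49 to 6.59 at 0 min. COL1A1 was its member called lower at 480 min (-0.75 ± 0.12, adjusted p = 9e-05), and the part of these lists in the results was not tested. None of the marker lists for epithelium, luminal cells, fibroblasts or leukocytes held a gene called at 480 min against 240 min.

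RefSeq promoters (GRCh38.p14, 250 bases before to 50 after the gene start) were in the table used for 32 of the 36 genes. MCM4, MCM5, GINS4 and E2F8 are named only. The E2F motif was searched as TTTGGCGC, TTTCCCGC, TTTGCCGC and TTTCGCGC, and the CCAAT box as CCAAT, both on either strand. An E2F match lay in 17 of 32 (53.1%), against 3.27% of all 27305 promoters. A CCAAT box lay in 18 of 32 (56.2%), against 35.6% of all, and the cell cycle homology element TTTGAA in 2 of 32 (6.25%), against 15.6% of all. Outside the set, 57 other replication and E2F genes had a promoter in the table. An E2F match lay in 17 of them (29.8%), a CCAAT box in 30 (52.6%) and TTTGAA in 7 (12.3%). The 250 bases before the start are shown for the 3 genes with the largest increase at 480 min against 0 min, 5′ to 3′ on the gene's strand. Capitals mark E2F matches and CCAAT boxes (ATTGG where the box is on the other strand), which do not overlap in these stretches.
DTL, chr1:212035498-212035747, plus strand: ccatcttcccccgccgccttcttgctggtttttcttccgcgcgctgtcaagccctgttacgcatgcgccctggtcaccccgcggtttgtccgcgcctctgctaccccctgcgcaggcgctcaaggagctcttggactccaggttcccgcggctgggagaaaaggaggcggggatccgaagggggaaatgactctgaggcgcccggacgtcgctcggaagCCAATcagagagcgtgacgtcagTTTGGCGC
CDC6, chr17:40287629-40287878, plus strand: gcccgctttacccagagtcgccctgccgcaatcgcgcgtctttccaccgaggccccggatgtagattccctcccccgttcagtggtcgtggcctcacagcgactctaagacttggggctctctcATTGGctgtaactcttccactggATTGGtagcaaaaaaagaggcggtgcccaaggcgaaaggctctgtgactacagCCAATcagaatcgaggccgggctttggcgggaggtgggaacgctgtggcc
E2F7, chr12:77065570-77065819, minus strand: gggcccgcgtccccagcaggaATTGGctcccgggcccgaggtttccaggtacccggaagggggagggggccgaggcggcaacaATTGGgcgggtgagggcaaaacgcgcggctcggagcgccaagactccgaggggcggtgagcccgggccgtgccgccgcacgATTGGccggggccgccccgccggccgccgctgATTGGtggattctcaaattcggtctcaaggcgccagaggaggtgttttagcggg
The DTL stretch held 1 E2F match, beginning 8 bases before the gene start, and 1 CCAAT box. That of CDC6 held 3 CCAAT boxes, and its E2F match lay after the start, outside the bases shown. The E2F7 stretch held 4 CCAAT boxes, and these E2F letters were in no part of its window. A match is a description of letters and shows no binding.

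Few of the genes were called up to 120 min, several were lower at 240 min, and more were higher at 480 min. At 20, 40 and 60 min against 0 min none was called in limma in either direction, where 0.895%, 1.81% and 4.84% of all genes were called higher and 0.0841%, 0.415% and 0.979% lower. At 120 min 1 was lower and none higher, against 3.2% and 11.2% of all genes. At 240 min 6 of 36 were lower (6.21% of all genes) and 1 was higher (13.5% of all genes). At 480 min 11 of 36 were higher (15.5% of all genes) and none was lower (7.11% of all genes). At an unadjusted p under 0.05 the genes counted were 9 higher and 1 lower at 20 min, 2 and 2 at 40 min, 4 and 0 at 60 min, 6 and 1 at 120 min, 2 and 9 at 240 min and 15 and 1 at 480 min. The share of all genes under that unadjusted cut was not computed, so these counts have no background. The contrasts share the 0 min arrays. In the F-test over all 6 contrasts 13 of 36 passed, against 27.5% of all genes. Among those, E2F8 (adjusted p = 0.01), SKP2 (0.042) and GINS4 (0.048) passed it without a call in any single contrast against 0 min.

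**Figure D1:**
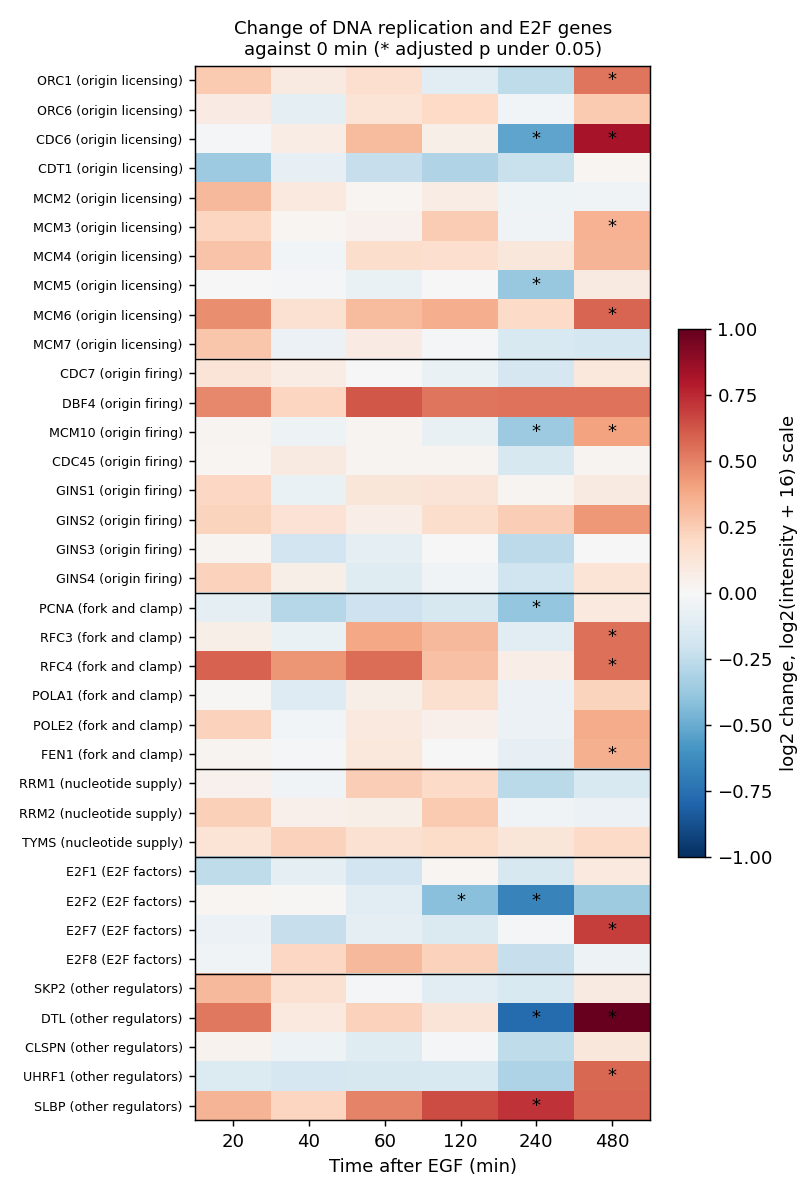
Change of each of the 36 genes (rows, grouped by role) at each time after EGF in min (columns), as the mean log2 difference from 0 min over 3 arrays a time. Stars mark an adjusted p under 0.05 in limma. They stand on 7 genes at 240 min, 6 of them lower, and on 11 genes at 480 min, all higher.

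From 240 to 480 min 9 of 36 genes rose and none fell, where 0.781% of all genes rose and 0.679% fell. At an unadjusted p under 0.05, 22 were higher and 0 lower, a cut for which the share of all genes was not computed. The median change of the 36 was 0.29, against 0.02 for all genes. Of the 36, 32 were positive and 4 negative, where 55.3% of all genes were positive. In 24 of 36 genes all 3 arrays at 480 min read above all 3 at 240 min, and in none below, where 11% and 9.37% of all genes did so. Against 0 min, 14 of 36 lay wholly below and 2 wholly above at 240 min (14.4% and 23.1% of all genes), and 17 wholly above and 1 wholly below at 480 min (21.6% and 12.7% of all genes). The 240 min mean was the lowest of the 7 in 21 genes, and the 480 min mean the highest in 20. Neither was counted over all genes, so these counts have no background. In bulk RNA, more cells that express a gene and more of its RNA per cell cannot be told apart. Members of the list were chosen with earlier results of these data known.

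None of the early changes at 20 min passed. At 20 min against 0 min the median change of the 36 genes was 0.11, with 28 positive and 8 negative. For all genes the median was 0.02, and 53.5% were positive. RFC4 and DTL are named here after their values were seen. RFC4 read 6.93, 7.0 and 6.36 at 20 min, against 5.96, 6.16 and 6.4 at 0 min, and these overlap (0.59 ± 0.19, adjusted p = 0.13). DTL read 7.71, 8.06 and 7.48 at 20 min, against 7.05, 7.26 and 7.37 at 0 min, without overlap (0.52 ± 0.19, adjusted p = 0.16). In both genes 20 min C was the lowest array of its time, as it was in 24 of the 36. With the array index (the gap between the log2 medians of named and unnamed probesets) as a covariate the median at 20 min was -0.0166. The index averaged 1.31 at 20 min and 1.24 at 0 min.

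**Figure D2:**
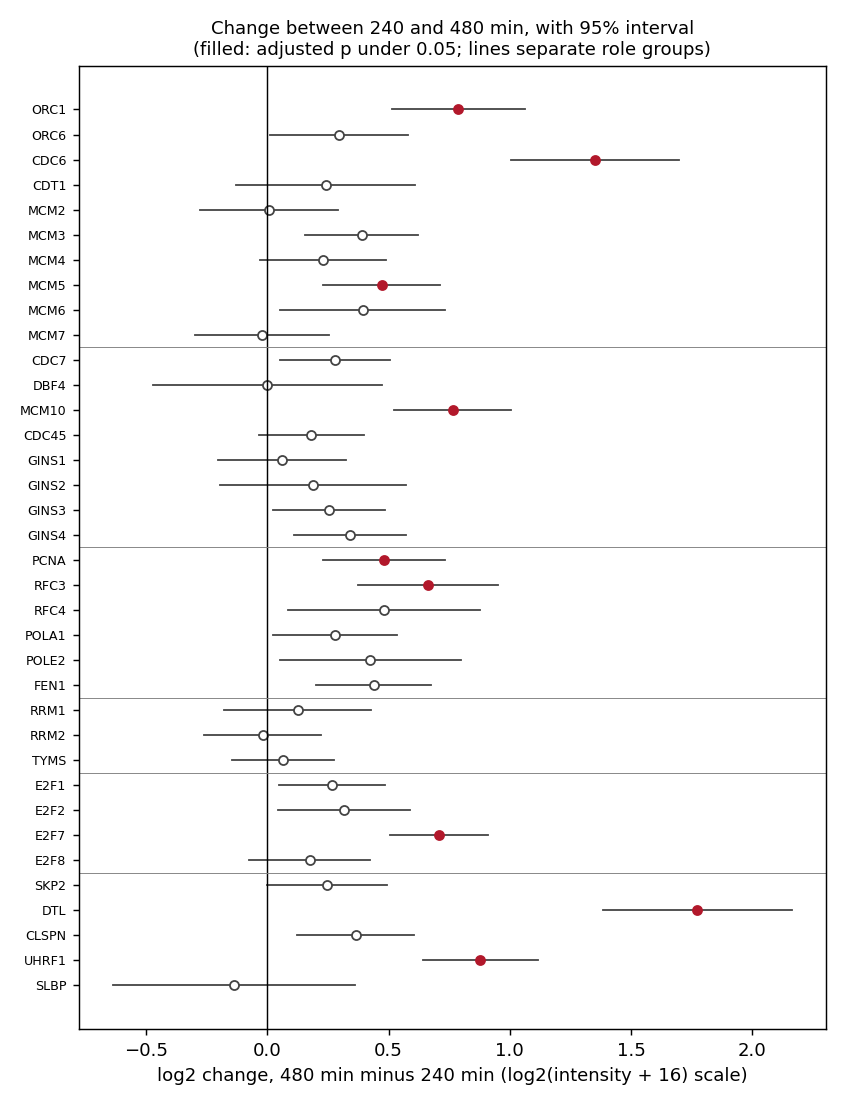
Change of each of the 36 genes between 240 and 480 min, as the log2 difference 480 min minus 240 min (x axis) with its 95% interval, 3 arrays a time. Filled points passed at an adjusted p under 0.05 in limma. The 9 filled points run from 0.47 in MCM5 to 1.77 in DTL.

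Among the 10 licensing genes, 4 were higher at 480 min than at 0 min (CDC6, MCM6, ORC1 and MCM3), where 15.5% of all genes were. At 240 min 2 were lower than at 0 min (CDC6 and MCM5), where 6.21% of all genes were. Between 240 and 480 min 3 rose (CDC6, ORC1 and MCM5), where 0.781% of all genes did. CDC6, the loader that ORC recruits, read 6.67, 6.80 and 7.20 at 0 min, 6.22, 6.47 and 6.39 at 240 min and 7.83, 7.35 and 7.97 at 480 min. Every array at 240 min lay below, and every array at 480 min above, all 3 at 0 min. It fell by 0.52 ± 0.17 at 240 min against 0 min (SE, n = 3 arrays each, adjusted p = 0.029 in limma) and was higher by 0.83 ± 0.17 at 480 min against 0 min (adjusted p = 0.00091). Between 240 and 480 min it rose by 1.35 ± 0.17 (adjusted p = 7.1e-05), with all 13 of its probesets higher at 480 min. The call at 240 min was just lost with only probesets above the 75th percentile (adjusted p = 0.052) and with an offset of 64 (0.051).

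ORC1, the largest ORC subunit and the one whose amount follows the cell cycle, read 6.53, 6.41 and 6.48 at 480 min, against 5.65, 6.15 and 6.04 at 0 min. All arrays at 480 min were above those at 0 min, where A stood low. Its change was 0.53 ± 0.13 at 480 min against 0 min (adjusted p = 0.0054) and 0.79 ± 0.13 at 480 min against 240 min (adjusted p = 0.002). With only probesets above the 75th percentile its second change was 0.30 (adjusted p = 0.2), and with an offset of 64 the changes were 0.32 and 0.46, both still called. ORC6, the small ORC subunit, changed by 0.27 ± 0.14 at 480 min against 0 min, which did not pass (adjusted p = 0.18). CDT1, the partner of CDC6 in loading the helicase, read 6.75, 7.01 and 6.70 at 480 min, against 6.98, 6.64 and 6.78 at 0 min, and these overlap. Its change of 0.02 had a 95% interval from -0.35 to 0.39.

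The 6 helicase subunits, which act as 1 ring, gave calls in MCM3, MCM5 and MCM6 and none in MCM2, MCM4 and MCM7. MCM6 read 7.85, 7.53 and 8.03 at 480 min, against 6.98, 7.30 and 7.38 at 0 min, without overlap. Its change was 0.58 ± 0.16 (adjusted p = 0.013), and 0.32 with the array index as a covariate. MCM3 lay between 7.48 and 7.62 at 480 min, against 6.98 to 7.34 at 0 min, a change of 0.35 ± 0.11 (adjusted p = 0.027). That call was lost under median centring (adjusted p = 0.063), with the array index as a covariate (0.056) and with only the 6 arrays compared (0.09). MCM4 came just short at 0.34 ± 0.13 (adjusted p = 0.054). MCM5 was instead a gene of the dip, at 6.89, 7.02 and 6.90 at 240 min, against 7.21, 7.33 and 7.39 at 0 min, without overlap. It fell by 0.38 ± 0.12 there (adjusted p = 0.025) and rose by 0.47 ± 0.12 between 240 and 480 min (adjusted p = 0.041). At 480 min its difference from 0 min was 0.09, with a 95% interval from -0.15 to 0.33. MCM2 read 6.79, 6.66 and 6.87 at 480 min, against 6.44, 6.91 and 7.06 at 0 min, and the first 3 lie inside the range of the second. Its change of -0.03 had an interval from -0.32 to 0.25, and its sign turned with the choice of probesets. MCM7 changed by -0.18, with an interval from -0.45 to 0.10. No test of the differences between subunits was made.

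Of the 8 genes of origin firing, MCM10 was called in all 3 comparisons and the other 7 in none. MCM10, which helps the loaded helicase to unwind, read 6.24, 6.22 and 6.35 at 0 min, 5.79, 5.85 and 6.08 at 240 min and 6.55, 6.69 and 6.78 at 480 min. The 3 times did not overlap. Its changes were -0.36 ± 0.12 at 240 min against 0 min (adjusted p = 0.031), 0.40 ± 0.12 at 480 min against 0 min (adjusted p = 0.015) and 0.76 ± 0.12 at 480 min against 240 min (adjusted p = 0.00075). All 24 of its probesets were higher at 480 than at 240 min, and with no filter the 240 min call was lost (adjusted p = 0.18). With an offset of 64 its changes were -0.21, 0.26 and 0.47, all still called. CDC45, a helicase partner, changed by 0.03 at 480 min against 0 min, with an interval from -0.19 to 0.24. The kinase CDC7 changed by 0.11, with an interval from -0.12 to 0.34.

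DBF4 read 6.47, 6.11 and 6.84 at 480 min, against 5.78, 5.94 and 6.08 at 0 min. The groups do not overlap, but the change of 0.54 ± 0.23 did not pass (adjusted p = 0.095), and at 240 min it was 0.54 too (adjusted p = 0.1). DBF4 was called higher at 480 min with no filter (0.91, adjusted p = 0.0083) and with the mean over probesets (0.69, adjusted p = 0.0051). It was also called at 240 min in both, and at 60 and 120 min with the mean. The 4 GINS subunits ran from -0.01 in GINS3 to 0.43 in GINS2 at 480 min against 0 min, and none passed, though GINS2 did with no filter and with the mean. GINS2 was uneven at 0 min, with 5.62, 5.38 and 6.25 in A, B and C.

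At the fork itself, 3 of 6 genes were higher at 480 min than at 0 min (RFC3, RFC4 and FEN1), where 15.5% of all genes were. RFC3 and RFC4 are subunits of the loader that opens PCNA. RFC3 read 7.41, 7.50 and 7.68 at 480 min, against 6.88, 7.05 and 7.0 at 0 min, without overlap. Its change was 0.55 ± 0.14 (adjusted p = 0.0057), and against 240 min 0.66 ± 0.14 (adjusted p = 0.013). With no filter neither was called (adjusted p = 0.068 and 0.34), nor was the second with only the 6 arrays compared (0.051). RFC4 read 6.80, 6.42 and 6.96 at 480 min, against 5.96, 6.16 and 6.4 at 0 min, a narrow separation. Its change of 0.55 ± 0.19 (adjusted p = 0.041) shrank to 0.05 (adjusted p = 0.8) with only probesets above the 75th percentile. It was also not called with the mean (0.24), the array index (0.33), no filter (0.50) or an offset of 64 (0.36). FEN1, the nuclease that trims Okazaki fragments, read 7.10, 7.31 and 7.16 at 480 min, against 6.83, 6.84 and 6.83 at 0 min. The groups are apart, by 0.36 ± 0.11 (adjusted p = 0.026), a call lost under median centring (0.075) and with only the 6 arrays compared (0.053).

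PCNA, the sliding clamp, read 8.17, 7.88 and 7.94 at 0 min, 7.55, 7.56 and 7.73 at 240 min and 8.20, 7.96 and 8.12 at 480 min. Its 240 min arrays lie below all others of these times, and those of 0 and 480 min overlap. It fell by 0.38 ± 0.12 at 240 min against 0 min (adjusted p = 0.028) and rose by 0.48 ± 0.12 between 240 and 480 min (adjusted p = 0.047), ending 0.10 ± 0.12 from 0 min. Both calls were lost with no filter and with an offset of 1, and the second with only the 6 arrays compared and with the replicate letter as a block. The polymerase subunits POLA1 and POLE2 changed by 0.22 and 0.37 at 480 min against 0 min and did not pass.

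The 3 genes of deoxynucleotide supply were called in none of these comparisons. RRM2, the small subunit of ribonucleotide reductase, read 8.83, 8.87 and 8.75 at 480 min, against 8.76, 8.80 and 9.06 at 0 min. The groups overlap, and the change of -0.06 had an interval from -0.30 to 0.19. Its sign turned when dimmer probesets were added (0.34) or only those above the 75th percentile used (0.29), and neither passed. Single probesets also went against the gene median, with 14 of its 15 higher at 480 min than at 0 min. At 120 min against 0 min RRM2 was called higher with no filter (0.71, adjusted p = 0.027) and with the mean over probesets (0.51, adjusted p = 0.0013), against 0.26 (adjusted p = 0.14) here, so its course depends on how probesets are combined. RRM1, the large subunit, changed by -0.15 (interval -0.45 to 0.15) and TYMS, which makes thymidylate, by 0.19 (interval -0.02 to 0.40). The 12 probesets of TYMS were split, with 6 higher and 6 lower at 480 min than at 0 min.

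**Figure D3:**
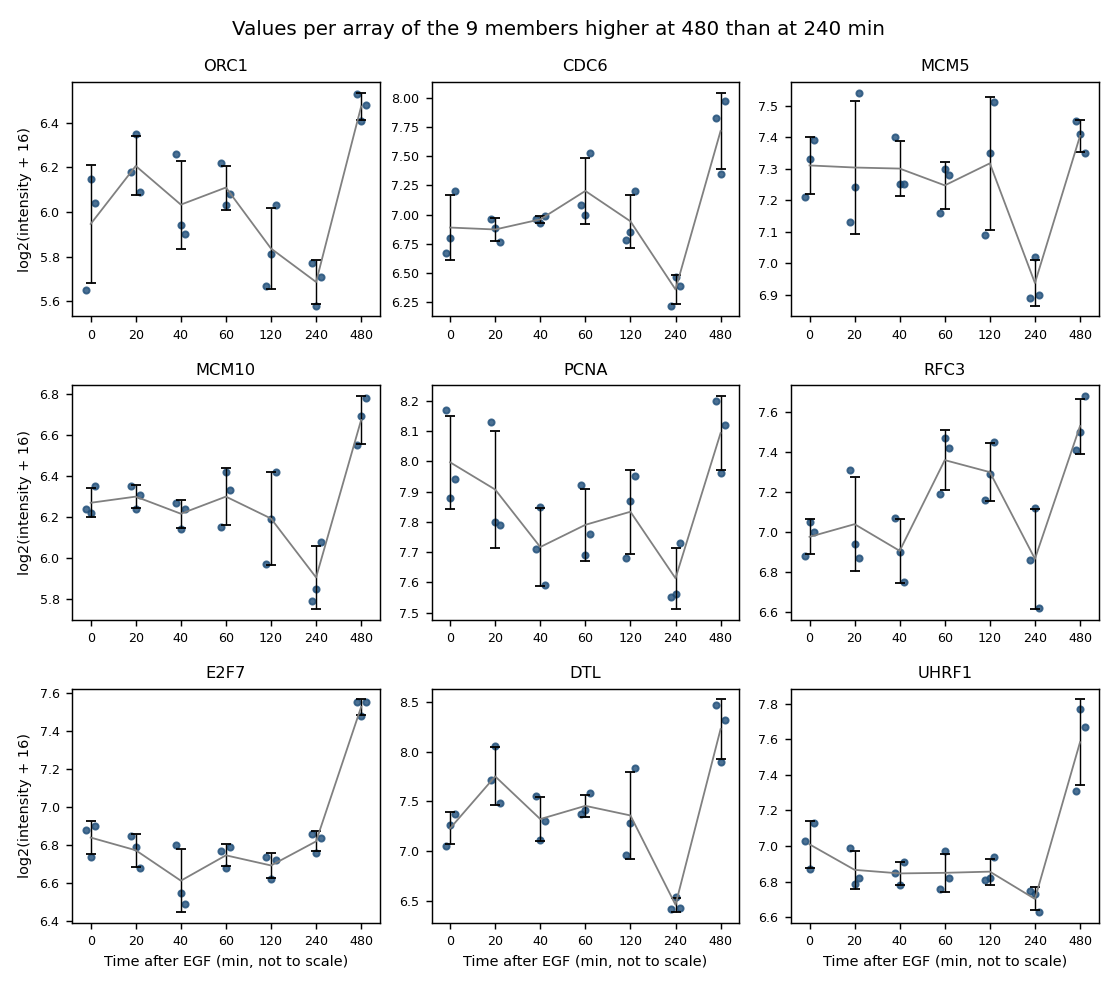
Values of the 9 genes that rose between 240 and 480 min, as log2(intensity + 16) (y axis) at each of 7 times after EGF in min (x axis, not to scale). Points are the 3 arrays of a time, black bars the mean ± SD, and the grey line joins the means. DTL and CDC6 show the largest step between 240 and 480 min, of 1.77 and 1.35, while E2F7 stays between 6.49 and 6.90 in every array up to 240 min.

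Among the 5 regulators DTL moved the most, and its changes were the largest of all 36 in the 240 min fall, the 480 min increase and the step between. DTL is the substrate receptor of a ubiquitin ligase that destroys CDT1 once replication starts. It read 7.05, 7.26 and 7.37 at 0 min, 6.41, 6.54 and 6.42 at 240 min and 8.47, 7.89 and 8.32 at 480 min. The 3 times do not overlap. It fell by 0.77 ± 0.19 at 240 min against 0 min (adjusted p = 0.0051) and was higher by 1.00 ± 0.19 at 480 min against 0 min (adjusted p = 0.00046). Between 240 and 480 min it rose by 1.77 ± 0.19 (adjusted p = 9.2e-06), with all 17 probesets higher. It was also the gene called lower at 240 min against 120 min (adjusted p = 0.011), where 1.09% of all genes were, and none was called higher, where 0.445% of all genes were.

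UHRF1, which brings DNA methylation to new strands, read 7.31, 7.77 and 7.67 at 480 min, against 7.03, 6.87 and 7.13 at 0 min. All arrays at 480 min were higher, by 0.57 ± 0.11 (adjusted p = 0.00081), and by 0.88 ± 0.11 against 240 min (adjusted p = 0.00014). SLBP, which binds the stem-loop of histone mRNAs, was the gene called higher at 240 min. It read 7.45, 7.63 and 7.87 at 240 min, against 6.70, 6.89 and 7.19 at 0 min, without overlap. That change of 0.72 ± 0.24 passed (adjusted p = 0.037), was 0.37 (adjusted p = 0.24) with only probesets above the 75th percentile and 0.36 (adjusted p = 0.041) with the array index as a covariate, and at 480 min was 0.59 ± 0.24 (adjusted p = 0.087). CLSPN, a checkpoint adaptor at the fork, and SKP2, which targets p27 for destruction, changed by 0.11 and 0.09 at 480 min against 0 min and did not pass. SKP2 changed most at 20 min against 0 min, with 8.39, 8.38 and 8.35 against 7.79, 8.31 and 8.04, without overlap. That change of 0.32 ± 0.12 did not pass (adjusted p = 0.16 in limma) but was called with the mean over probesets.

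The 4 E2F genes of the set split. E2F7, a repressor in the family, read 7.55, 7.48 and 7.55 at 480 min, against 6.88, 6.74 and 6.90 at 0 min. The arrays at 480 min stand well clear, by 0.69 ± 0.10 (adjusted p = 1.8e-05), the smallest adjusted p of the 36 at that time. At 240 min against 0 min its change was -0.02, with an interval from -0.22 to 0.18, and between 240 and 480 min it rose by 0.71 ± 0.10 (adjusted p = 0.00026). With dim probesets included, the change was 0.41 at 480 min against 0 min (adjusted p = 0.025) and 0.33 against 240 min (adjusted p = 0.31). E2F8, the other repressor of this kind, changed by -0.05 ± 0.12 at 480 min. Against 0 min its change was 0.32 at 60 min (adjusted p = 0.12) and -0.23 at 240 min (adjusted p = 0.2). Neither passed, though E2F8 passed the F-test over all 6 contrasts (adjusted p = 0.01).

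E2F2, an activator, was lower instead. It read 6.21, 6.54 and 6.31 at 0 min, 5.93, 5.91 and 5.98 at 120 min, 5.74, 5.57 and 5.74 at 240 min and 6.02, 5.91 and 6.06 at 480 min. All 9 later arrays lie below those at 0 min. It fell by 0.41 ± 0.13 at 120 min (adjusted p = 0.036) and by 0.67 ± 0.13 at 240 min (adjusted p = 0.00077), and its -0.36 ± 0.13 at 480 min just missed (adjusted p = 0.055), all against 0 min. At 240 min its change was -0.40 with only probesets above the 75th percentile and -0.38 with an offset of 64, and both passed. E2F1, the founding activator of the family, read 6.66, 6.85 and 6.80 at 480 min, against 6.62, 6.70 and 6.68 at 0 min. These overlap, and the change of 0.10 had an interval from -0.12 to 0.32. With no filter on dim probesets E2F1 was called higher, by 0.42 at 480 min against 0 min (adjusted p = 0.036) and by 0.70 against 240 min (adjusted p = 0.01).

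**Figure D4:**
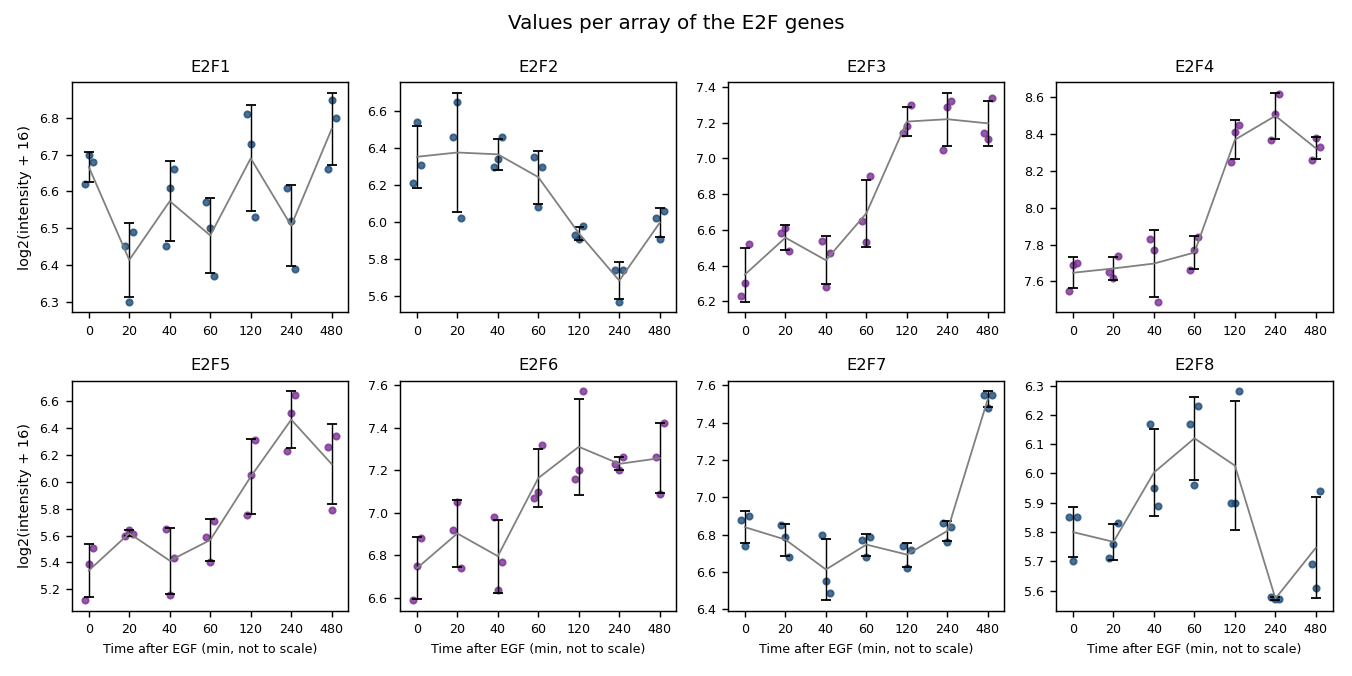
Values of E2F genes as log2(intensity + 16) (y axis) at each of 7 times after EGF in min (x axis, not to scale), with the 4 genes of the set in blue and E2F3 to E2F6 in purple. Points are the 3 arrays of a time, black bars the mean ± SD, and the grey line joins the means. E2F3 and E2F4 stand higher from 120 min on, E2F2 lies lowest at 240 min and E2F7 stands apart at 480 min.

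Outside the set, 65 other replication and E2F genes were tested of 68 listed. At 480 min against 0 min 16 (24.6%) were higher and 2 (3.08%) lower, where 15.5% and 7.11% of all genes were. At 240 min against 0 min 10 (15.4%) were higher and 8 (12.3%) lower, where 13.5% and 6.21% of all genes were. E2F3, an activator, read 7.14, 7.11 and 7.34 at 480 min, against 6.23, 6.30 and 6.52 at 0 min, a change of 0.85 ± 0.12 (adjusted p = 1.6e-05). It was already 0.86 ± 0.12 at 120 min (adjusted p = 2.1e-05). E2F4, mostly a repressor in resting cells, was higher by 0.67 ± 0.11 at 480 min (adjusted p = 6.7e-05). E2F5 and E2F6, named after their values were seen, were higher by 0.79 ± 0.17 (adjusted p = 0.0013) and 0.52 ± 0.13 (adjusted p = 0.0059). All of E2F3 to E2F6 were also called higher at 120 min against 0 min, where 10 of the 65 (15.4%) and 11.2% of all genes were. None of the 36 was called higher then, though DBF4, RFC3 and RRM2 were with the mean over probesets and RRM2 with no filter.

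MCMBP, which handles MCM complexes, and CDCA4 had the smallest adjusted p of the others at 480 min, with 0.98 ± 0.11 (adjusted p = 9.4e-07) and 0.91 ± 0.11 (adjusted p = 2.7e-06). TOP2A, which untangles chromosomes for mitosis, and the ligase LIG1 changed by -0.47 ± 0.13 (adjusted p = 0.012) and -0.26 ± 0.09 (adjusted p = 0.046). A fall at 240 min and a later rise were also called in 3 genes named after their values were seen, PRIM1, POLA2 and CHAF1A. PRIM1, the primase subunit that starts each new strand, fell by 0.89 ± 0.15 at 240 min against 0 min (adjusted p = 0.00015) and rose by 0.92 ± 0.15 between 240 and 480 min (adjusted p = 0.0014). POLA2 rose by 0.66 and CHAF1A by 0.51 between 240 and 480 min. In that step 6 of the 65 (9.23%) rose and none fell, where 0.781% of all genes rose and 0.679% fell.

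Promoter letters were also counted by behaviour. An E2F match lay in 6 of 11 genes higher at 480 min than at 0 min and in 11 of 21 that did not pass. A CCAAT box lay in 8 of 11 and 10 of 21. For the step between 240 and 480 min an E2F match lay in 4 of 8 genes that rose, against 13 of 24 for the rest, and a CCAAT box in 7 of 8, against 11 of 24. No test was made.

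Single arrays weighed on the counts. The 11 genes higher at 480 min became 7 without 0 min A or without 480 min C. The 6 lower at 240 min became 3 without 0 min C and 2 without 240 min A, with DTL and E2F2 called in all 6 such refits. At 480 min against 0 min the calls of DTL, CDC6, E2F7, UHRF1, ORC1 and RFC3 held in all 6 refits that left out an array. MCM6 lost its call without 0 min A (adjusted p = 0.075) or 480 min C (0.084), and MCM10 without 0 min B (0.051) or 480 min C (0.077). MCM3 lost it without 0 min A (0.16), 480 min A or 480 min B. RFC4 was not called without 0 min A, 0 min B, 480 min A or 480 min C (0.18), and FEN1 in none of the refits but the one without 480 min A (0.058 to 0.099 in the others). At 240 min against 0 min CDC6 was not called without 0 min C (0.17), 240 min A or 240 min C, nor PCNA without 0 min A (0.13), 240 min A or 240 min B. MCM5 was called only in the refits without 0 min A or 240 min B, and MCM10 only in the one without 240 min C. SLBP was not called without 0 min A, 0 min B, 240 min B or 240 min C (0.15), nor E2F2 at 120 min without 0 min B, 0 min C, 120 min B or 120 min C. Array 0 min A was the lowest of its 3 in 20 of 36 genes, and 0 min C the highest in 21. CDC6, MCM10, DTL and UHRF1 kept their call at 480 min against 240 min in every alternative tried, and the calls of PCNA and MCM5 were lost in 5 and 6 of 6 refits that left out an array (all but 480 min B for PCNA). RFC3 lost its call in that step without 240 min A, 240 min C (0.12) or 480 min C.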

How the data were processed

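Total RNA was depleted of ribosomal RNA and biotin-labelled, per the labels. The deposited values were linear intensities, 1 per probeset and array (1384231 probesets, 21 arrays). PLIER and version 1.1 of Affymetrix Expression Console are named per the submitters' processing notes, with settings and background correction not given in the sources used here. Equal array medians show that intensities were equalised before deposit.

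The platform annotation gave 354600 probesets 1 symbol. Older symbols were updated through the GRCh38.p14 gene table only where no probeset carried the current one, which kept 7 C2orf48 probesets out of RRM2. A probeset was kept when its mean log2(intensity + 16) over all arrays reached the median of all probesets (5.18), and a gene needed 3. Of the single-gene probesets 73.7% were kept. limma 3.58.1 (under R 4.3.3) fitted 1 mean per time over 21 arrays, with 14 residual degrees of freedom, two-sided. Figures used matplotlib 3.10.9, and tables the R package data.table. On simulated data for 480 min against 0 min (16642 genes) the procedure recovered 41% of changes of 0.5 and 93% of changes of 1. The simulated noise was independent between genes, and only 100 genes were changed at each size. In the data more genes were called and genes of an array shifted together, so these rates need not hold there. The number of arrays limits precision.

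The members and lists were chosen with earlier results of these data known. Array values at 0 and 480 min were to be given for up to 10 members called in each direction at 480 min and for E2F1, CDC6, MCM2, PCNA and RRM2. Of the other genes, up to 4 in each direction were named by adjusted p at 480 min, and promoters were printed for the 3 largest increases. Alternatives were other offsets, filters, summaries, scalings, covariates, fewer arrays and each array left out. Results at 480 min against 240 min under alternatives, and the merging of older symbols, were added after seeing the data.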

Additional observations from a re-analysis of the deposited data

Results flagged for a closer look

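CDC6, MCM10 and DTL were each lower at 240 min and higher at 480 min than at 0 min, so the change against 0 min differed in direction between the later and the earlier time. The genes were picked by those calls, so a difference between 480 and 240 min was fixed in advance and is no separate support. In limma that difference was 1.77 in DTL (adjusted p = 9.2e-06), 1.35 in CDC6 (adjusted p = 7.1e-05) and 0.76 in MCM10 (adjusted p = 0.00075). In each, all 3 arrays at 480 min lay above all 3 at 240 min.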

How the results depend on the processing

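No member was called lower at 480 min against 240 min under any alternative, and the number called higher there ran from 6 to 8 when 1 array was left out. With the mean over probesets that number was 14, the F-test passed 24 members, all genes called at 480 min against 240 min numbered 459, members called higher were 1 at 20 min, 3 at 60 min, 3 at 120 min and 2 at 240 min, and 1 (E2F2) was lower at 480 min. E2F2 was also the 1 gene lower at 480 min with median centring, with an offset of 1 and with no filter. With no filter 1 member was higher at 120 min and 3 at 240 min, and the median at 480 min was 0.33. The filter at the 75th percentile gave 1 higher at 60 min, 1 higher at 120 min and 0 lower at 120 min. An offset of 64 gave 0 lower at 120 min and a median of 0.19 at 480 min against 240 min. With the array index as a covariate 10 were lower at 240 min, 2 lower at 480 min (RRM1 and E2F2) and 20 passed the F-test, the medians at 20, 60 and 120 min were -0.0166, -0.0453 and -0.047, and all genes called were 686 at 40 min and 637 at 480 min against 240 min. The index averaged 1.27 to 1.33 at times after EGF and 1.24 at 0 min. Merging older symbols gave 1 higher at 120 min, RRM2. With only the 6 arrays compared, 0 were lower at 120 min, 2 higher at 240 min, and all genes called were 74 at 20 min and 1320 at 120 min.

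MCM2 at 480 min against 0 min turned to 0.0111 with the 75th percentile filter and 0.0332 with the mean, and ran from -0.217 to 0.0951 with 1 array left out. It was 0.0191 without 0 min B and 0.0234 without 480 min B. RRM2 turned to 0.29 with that filter, 0.25 with the mean, 0.34 with no filter and 0.32 with merged symbols, and ran from -0.113 to 0.0374 with 1 array left out. The causes were not tested.

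With 1 array left out, members called higher ran from 0 to 2 at 20 min, 0 to 2 at 60 min, 0 to 4 at 120 min, 0 to 1 at 240 min and 7 to 12 at 480 min, and members called lower from 0 to 1 at 120 min, 2 to 5 at 240 min and 0 to 1 at 480 min. All genes called ran from 81 to 1181 at 20 min, 456 to 1009 at 60 min, 1569 to 3048 at 120 min, 2190 to 2784 at 240 min and 125 to 186 at 480 min against 240 min. Whether the letters A to C pair arrays of different times was not settled. Of 63 pairs with the same letter 19 correlated over 0.1, and the median correlation was -0.0106. Of the 21 arrays, 11 correlated best with an array of their own letter. With the letter as a replicate block 0 members were lower at 120 min and 8 rose at 480 min against 240 min, where PCNA no longer passed.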
